A study of Mus musculus with 8 samples.

Results

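The genes described here encode the major histocompatibility complex (MHC) class I molecules of the mouse and the machinery that fills them with peptide. There were 10 of them: H2-K1, H2-D1, H2-T23, B2m, Tap1, Tap2, Tapbp, Psmb8, Psmb9 and Psmb10, out of 17711 genes named on the array. They were chosen by symbol, and the choice was made with the surface and crypt base values of these same arrays already known, so their differences between the 2 positions are given as a description without a test. RNA came from the distal colon of 4 male wild-type C57BL/6 mice aged 10 to 12 weeks. Laser capture microdissection took surface and crypt base cells of each mouse, which gave 4 samples a group and 8 arrays. The labels name no treatment, and they number the samples of each group 1 to 4 without saying that a number marks a mouse. Samples of the same number are called a pair, within that limit.

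Class I molecules display short peptides from inside the cell to CD8+ T cells and natural killer cells. The proteasome cuts proteins into peptides, the transporter TAP carries them into the endoplasmic reticulum, and tapasin holds TAP next to the empty class I molecule until a peptide binds. The molecule itself is a heavy chain paired with beta-2 microglobulin. In cells exposed to interferon, the proteasome subunits encoded by Psmb8, Psmb9 and Psmb10 replace the constitutive catalytic subunits and form the immunoproteasome. The colonic epithelium renews itself from stem cells at the crypt base, and its cells differentiate as they move up to the surface.

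Class I promoters are known for a kappa B element, an interferon response element and an X and Y box module that the coactivator NLRC5 acts through. The RefSeq promoter windows (assembly GRCm38.p6, 250 bases before to 50 after the start) were searched on both strands for the letters of these elements, and 9 of the 10 genes had a window. Tap2 had none. The windows of the 2 classical heavy chains, of beta-2 microglobulin and of Tap1 are shown because they hold the most of these letters or share their start region with a second gene of the group. Capitals mark GGGNNTTCC (class I kappa B), GAAANNGAA or GAANNGAAA (interferon response, in both orders), TGACG (X2 core) and CCAAT (Y box), or their reverse complements. The windows read 5′ to 3′ on the strand of the gene.
H2-K1, chr17:34000298-34000597, minus strand: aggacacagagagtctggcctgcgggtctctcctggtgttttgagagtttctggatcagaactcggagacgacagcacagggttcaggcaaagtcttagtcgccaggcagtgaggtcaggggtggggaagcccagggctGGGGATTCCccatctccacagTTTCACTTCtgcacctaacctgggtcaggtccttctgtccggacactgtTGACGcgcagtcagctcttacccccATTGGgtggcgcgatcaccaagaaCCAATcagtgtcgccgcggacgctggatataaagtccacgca
H2-D1, chr17:35262844-35263143, plus strand: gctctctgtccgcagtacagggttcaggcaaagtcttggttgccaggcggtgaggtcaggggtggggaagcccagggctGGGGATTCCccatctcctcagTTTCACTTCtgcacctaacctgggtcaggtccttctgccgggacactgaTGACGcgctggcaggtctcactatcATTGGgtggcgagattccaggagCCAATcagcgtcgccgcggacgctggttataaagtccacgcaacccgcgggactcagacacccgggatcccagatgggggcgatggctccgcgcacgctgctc
B2m, chr2:122147437-122147736, plus strand: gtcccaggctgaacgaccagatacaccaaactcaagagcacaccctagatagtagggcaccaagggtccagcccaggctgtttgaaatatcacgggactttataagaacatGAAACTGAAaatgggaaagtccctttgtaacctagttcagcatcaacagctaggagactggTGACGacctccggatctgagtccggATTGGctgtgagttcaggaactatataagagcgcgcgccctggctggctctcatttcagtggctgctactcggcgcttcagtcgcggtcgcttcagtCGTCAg
Tap1, chr17:34187306-34187605, plus strand: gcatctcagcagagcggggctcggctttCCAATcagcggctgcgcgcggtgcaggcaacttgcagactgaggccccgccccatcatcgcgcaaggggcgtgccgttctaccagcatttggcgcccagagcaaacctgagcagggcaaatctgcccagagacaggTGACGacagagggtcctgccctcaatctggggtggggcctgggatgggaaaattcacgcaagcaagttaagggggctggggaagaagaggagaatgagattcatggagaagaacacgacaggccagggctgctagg

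H2-K1 and H2-D1 held the same set of letters in the same order. The kappa B letters began 111 bases before the H2-K1 start and 171 before the H2-D1 start, followed by the interferon response letters at 90 and 150, TGACG at 41 and 101, and CCAAT in both orientations. Their windows were identical at 211 of 239 aligned bases (88.3%), against 56.5% to 70.5% for the other pairs of genes in the group. Each window was aligned on the strand of its gene, so the 61.8% of Tap1 with Psmb9 does not show their overlap, given below. RefSeq gave H2-K1 a further window with a start 14 bases away. B2m held GAAANNGAA 139 bases before its start, TGACG at 78 and CCAAT at 53. The windows of Tap1 and Psmb9 lie on opposite strands and overlap by 275 bases, so these genes share their TGACG and CCAAT. On chromosome 17 the RefSeq order was Psmb9, Tap1, Psmb8 and Tap2.

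Of all 32851 promoter windows, GGGNNTTCC was found in 5.82%, GAAANNGAA in 8.56%, GAANNGAAA in 7.52%, TGACG in 20.8% and CCAAT in 37.4%. Among the 9 windows of the group, GGGNNTTCC was found in 2 (H2-K1 and H2-D1), GAAANNGAA in 2 (H2-T23 and B2m), GAANNGAAA in 2 (H2-K1 and H2-D1), TGACG in 5 (those of H2-K1, H2-D1, B2m, Tap1 and Psmb9) and CCAAT in 7. The order GAANNGAAA was added after the sequences had been read. A match of letters is a description and not a binding site, and the Psmb8 and Psmb10 windows held none of these letters.

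Values below are log2 signals as deposited, and a change means surface minus crypt base on that scale, given ± the fit's standard error over 4 pairs. A probe was counted as detected on an array where its deposited detection p-value was under 0.05, and as many signals over the whole table exceeded a log2 of 5.52, which is called background, as were detected. Signal and detection differ for single probes. Between 15051 and 16439 of 46632 probes were detected per array. With 4 arrays a group, their number sets the precision of all values. Surface 4 stood apart: 199 of its probes differed by over 2 log2 units from the other samples' median, 184 of them lower. Crypt base 4 followed with 34 such probes, 22 of them lower, and the remaining samples had 6 to 14. In tissue captured in bulk, fewer cells of a type and less RNA per cell cannot be told apart. The epithelial markers Lgals4, a galectin, and Krt8, a keratin, had mean signals of 13.26 and 12.21 at the crypt base, while Krt20 was detected on no array. The smooth muscle actin Acta2 was also bright, at 12.59.

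The group had 18 probes. Of these, 13 were detected on at least 4 arrays and entered the fit, 11 were detected on all 8, and 4 were detected on no array, with signals of 4.98 to 5.51. The undetected ones were the dimmest of the H2-K1 probes, a second probe each of H2-D1 and B2m, and the sole probe of Tap1. All 13 probes in the fit had a higher mean at the surface, and 11 of them were higher in all 4 pairs. The 2 exceptions were the probes of Tapbp and Psmb9. These 13 probes stand for 9 genes, which were chosen on this contrast, so nothing is read from the counts. Of all 9494 genes tested, 4536 had a higher mean at the surface and 21.6% were higher in all 4 pairs.

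H2-K1, a classical class I heavy chain that presents peptides to CD8+ T cells, differed the most between the positions. Its brightest probe read 8.85, 8.42, 8.93 and 8.96 in surface samples 1 to 4 and 7.41, 7.31, 7.27 and 7.34 in crypt base samples 1 to 4. The lowest surface sample lay more than 1 log2 unit above the highest crypt base sample, and the crypt base samples hardly varied, with 7.33 ± 0.06 against 8.79 ± 0.25 at the surface (SD, n = 4). The change was 1.46 ± 0.11, or 2.74-fold, with single pairs between 1.11 and 1.66. A second probe of H2-K1, detected on 5 arrays, read 5.81, 5.85, 5.97 and 6.18 at the surface and 5.46, 5.40, 5.52 and 5.36 at the crypt base. Its groups did not overlap either, and its change of 0.52 ± 0.10 started from a crypt base level at background, where a fold change understates the difference.

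H2-D1, the other classical heavy chain of this strain, was bright everywhere. It read 12.76, 12.24, 12.55 and 11.73 at the surface and 11.92, 11.80, 11.97 and 11.36 at the crypt base. The groups overlapped because surface 4 was below crypt base 1, 2 and 3, while every surface sample was above the crypt base sample of its own number. The mean went from 11.76 ± 0.28 to 12.32 ± 0.45 (SD, n = 4), a change of 0.56 ± 0.10 (1.47-fold), with pairs between 0.37 and 0.84.

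H2-T23 encodes a nonclassical heavy chain that presents signal peptides of other class I molecules to receptors of natural killer cells. Its brightest probe read 8.73, 8.36, 9.14 and 9.47 at the surface and 7.82, 7.82, 8.13 and 8.66 at the crypt base. Only surface 2 fell below a crypt base sample, that of number 4, which was the highest of its group. The change was 0.82 ± 0.10 (1.76-fold), with pairs between 0.54 and 1.01. A second probe, also detected on all 8 arrays, read 7.58, 7.26, 7.93 and 8.03 at the surface and 6.83, 6.99, 7.06 and 7.41 at the crypt base. It gave the same order of samples at the surface and a change of 0.63 ± 0.11.

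B2m encodes beta-2 microglobulin, the light chain that every class I heavy chain needs to reach the cell surface. It read 9.88, 10.31, 10.78 and 9.72 at the surface and 9.28, 10.08, 9.90 and 8.91 at the crypt base. The spread within each group was nearly as wide as the difference between them, with 9.54 ± 0.54 at the crypt base and 10.17 ± 0.48 at the surface (SD, n = 4), and surface 1 and 4 lay below crypt base 2 and 3. Within pairs the surface sample was always the higher one, by 0.60, 0.24, 0.88 and 0.81. The change was 0.63 ± 0.12, or 1.55-fold.

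Peptide transport and loading could be read for Tap2 and Tapbp but not for Tap1. Tap1 and Tap2 encode the 2 chains of the TAP transporter. The Tap1 probe read 5.51, 5.45, 5.46 and 5.23 at the surface and 5.45, 5.21, 5.51 and 5.44 at the crypt base, all below background, so no level or change of Tap1 is known from these arrays. Tap2 read 8.94, 8.46, 8.51 and 8.02 at the surface and 8.20, 8.21, 8.03 and 7.29 at the crypt base. Surface 4 was again the low sample of its group and crypt base 4 of the other, so the groups overlapped while every pair was higher at the surface. The Tap2 change was 0.55 ± 0.10 (1.46-fold), with pairs between 0.25 and 0.73.

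Tapbp encodes tapasin, which bridges TAP and the class I heavy chain. It was the member with the smallest change among those in the fit. Its signals were 5.77, 5.68, 5.86 and 6.04 at the surface and 5.84, 5.75, 5.74 and 5.84 at the crypt base. These were little above background in all 8 samples, and the groups overlapped. The change was 0.04 ± 0.08, with pairs of -0.06, -0.07, 0.11 and 0.20, and without number 4 it was -0.01.

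**Figure D1:**
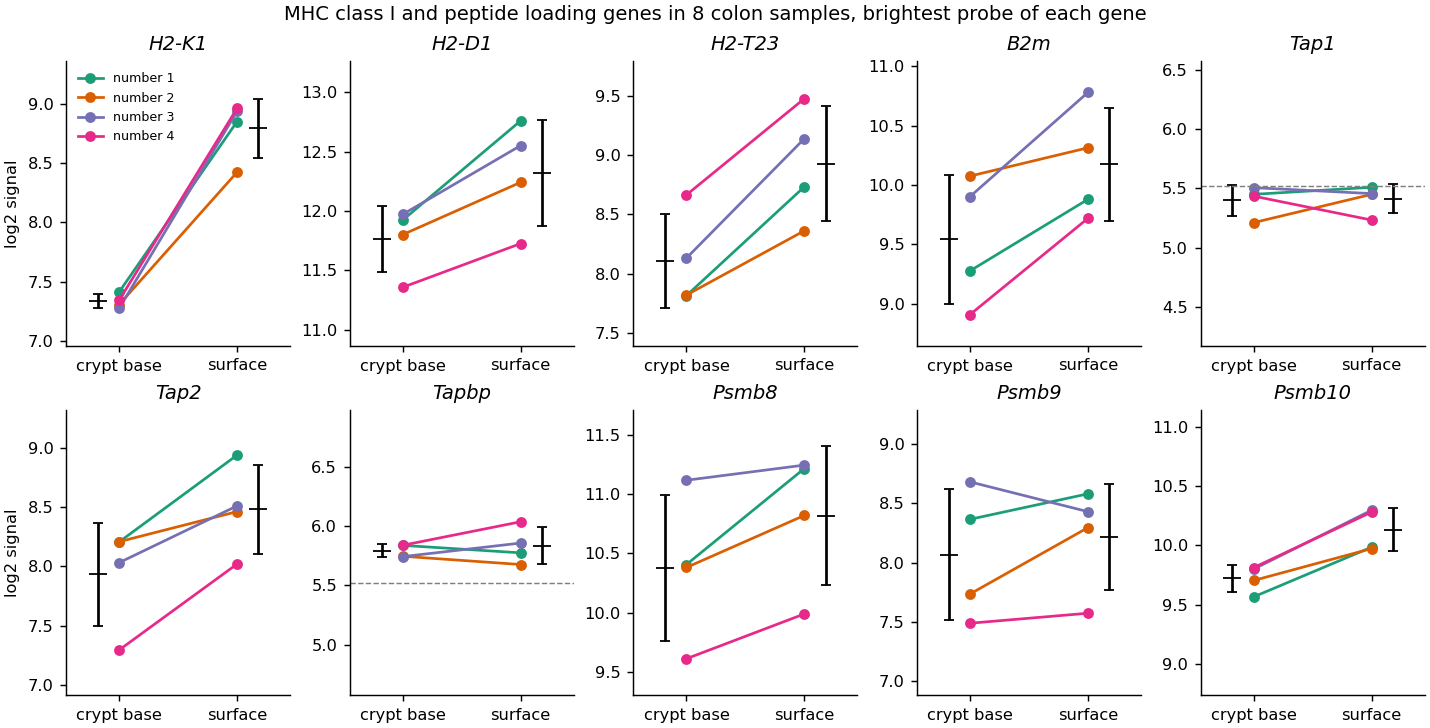
Log2 signal of the brightest probe of each gene in the 8 samples, with a line joining samples of the same number and, at the sides, the mean ± SD of each group (n = 4). The dashed line, where in range, is the background of 5.52. H2-K1 and Psmb10 had no overlap between the groups, and all 8 signals of Tap1 lay below background.

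Of the immunoproteasome subunits, Psmb8 and Psmb10 were higher at the surface in every pair and Psmb9 was not. Psmb8 replaces the chymotrypsin-like subunit. Its brightest probe read 11.22, 10.82, 11.24 and 9.99 at the surface and 10.41, 10.38, 11.12 and 9.61 at the crypt base. Surface 4 lay below crypt base 1, 2 and 3, and crypt base 3 stood above surface 2 and 4. The change was 0.44 ± 0.12 (1.35-fold), with pairs of 0.81, 0.44, 0.13 and 0.38.

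A second Psmb8 probe of much lower signal was detected on all 8 arrays and did not overlap between the groups. It read between 6.01 and 6.08 at the surface, while the crypt base samples read 5.73, 5.72, 5.93 and 5.72. Its change was 0.26 ± 0.08. The remaining probe, detected on 2 arrays, stayed near background, with a difference of 0.17.

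Psmb9, which replaces the caspase-like subunit, read 8.58, 8.29, 8.43 and 7.57 at the surface and 8.36, 7.74, 8.68 and 7.49 at the crypt base. The highest of the 8 samples was crypt base 3, and both samples of number 4 were the lowest. The change was 0.15 ± 0.14 (1.11-fold), with pairs of 0.21, 0.56, -0.25 and 0.08. Leaving out number 2 gave 0.016 and leaving out number 3 gave 0.29.

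Psmb10, which replaces the trypsin-like subunit, separated the groups with little spread. Its brightest probe read 9.98, 9.97, 10.30 and 10.28 at the surface and 9.57, 9.70, 9.80 and 9.81 at the crypt base. The means were 9.72 ± 0.11 at the crypt base and 10.13 ± 0.18 at the surface (SD, n = 4), a change of 0.41 ± 0.07 (1.33-fold). A second probe had all 8 signals far above background although it was detected on only 6 arrays, and it read 9.95, 9.43, 9.91 and 9.83 at the surface and 9.61, 9.12, 9.87 and 9.66 at the crypt base. It was higher at the surface in all 4 pairs, but its groups overlapped and its change was 0.21 ± 0.08.

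**Figure D2:**
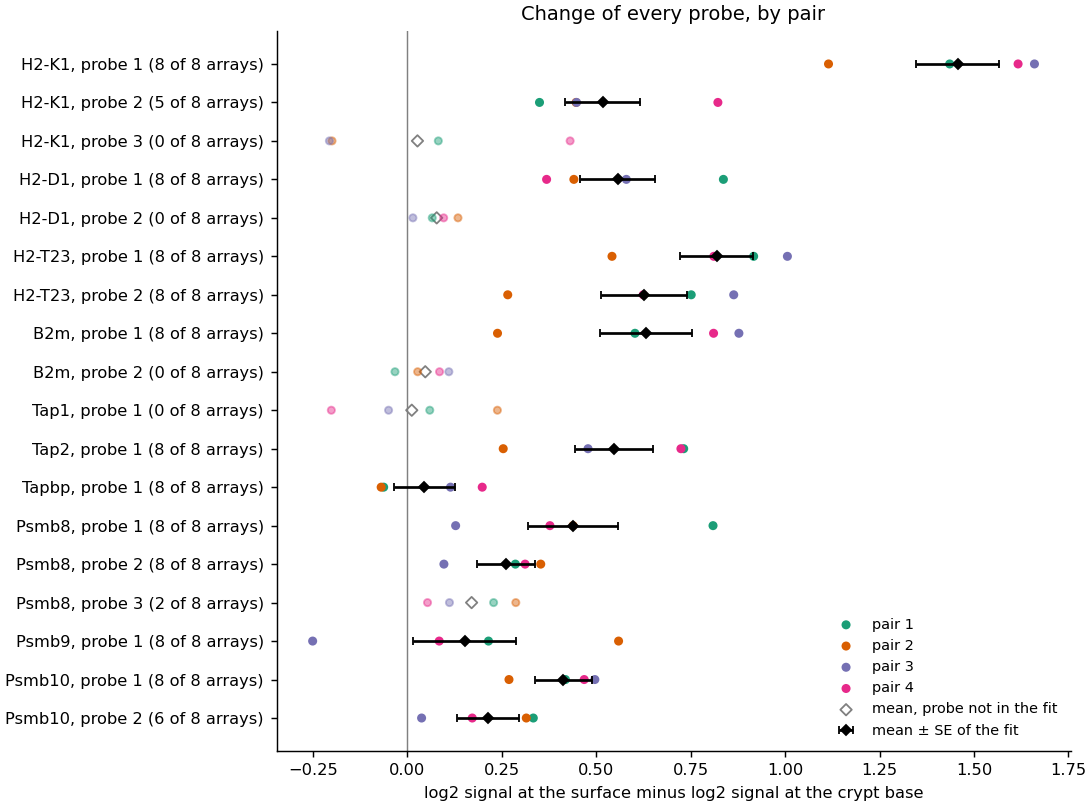
Change from crypt base to surface (log2) for all 18 probes of the 10 genes, with a coloured point for each pair. Black diamonds are means ± SE for the 13 probes in the fit, and open diamonds are means of probes detected on fewer than 4 arrays. The brightest H2-K1 probe lay highest at 1.46, and the probes detected on no array lay between 0.01 and 0.08.

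In the limma fit over 9494 genes, 22.2% passed an adjusted p-value of 0.05 in either direction, 12.1% higher at the surface and 10.1% lower. Of the 9 genes of the group in the fit, 7 passed as higher and 0 as lower; these were H2-K1, H2-D1, H2-T23, B2m, Tap2, Psmb8 and Psmb10. Since the genes were chosen on this contrast, nothing is read from that count. The same 7 genes were higher in all 4 pairs, as were 21.6% of all genes tested, and 2 had groups that did not overlap with the surface higher (H2-K1 and Psmb10, by their brightest probes), as had 9.72% of all genes tested. The median change of the 9 genes was 0.55, and that of all genes tested was -0.01. Without the block on sample number, 2 of the 9 passed, H2-K1 and Psmb10. Leaving out number 1, 2, 3 or 4 gave 0, 6, 2 and 3 of the 9, and without number 1 no gene of the 9494 passed. H2-K1 and H2-T23 passed in each of the other 3. Without number 4, which leaves out surface 4, the changes were 1.40 for H2-K1, 0.82 for H2-T23, 0.62 for H2-D1, 0.57 for B2m, 0.49 for Tap2, 0.46 for Psmb8 and 0.39 for Psmb10.

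Each immunosubunit can be set against the constitutive subunit it replaces. In the limma fit Psmb5, Psmb6 and Psmb7 had changes of -0.06 ± 0.13, -0.22 ± 0.11 and -0.08 ± 0.09, with adjusted p-values of 0.793, 0.205 and 0.615. The change of Psmb8 minus that of Psmb5 was 0.61, 0.26, 0.53 and 0.58 in pairs 1 to 4, with a mean of 0.49 and an SD of 0.16. Psmb9 minus Psmb6 gave 0.36, 0.48, 0.22 and 0.42 (mean 0.37, SD 0.11), and Psmb10 minus Psmb7 gave 0.42, 0.14, 0.80 and 0.60 (mean 0.49, SD 0.28). All 12 differences were positive, including that of Psmb9 in pair 3, where Psmb9 itself was lower at the surface. The differences rest on the pairing by number and carry no test, because the immunosubunits were chosen on this contrast.

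**Figure D3:**
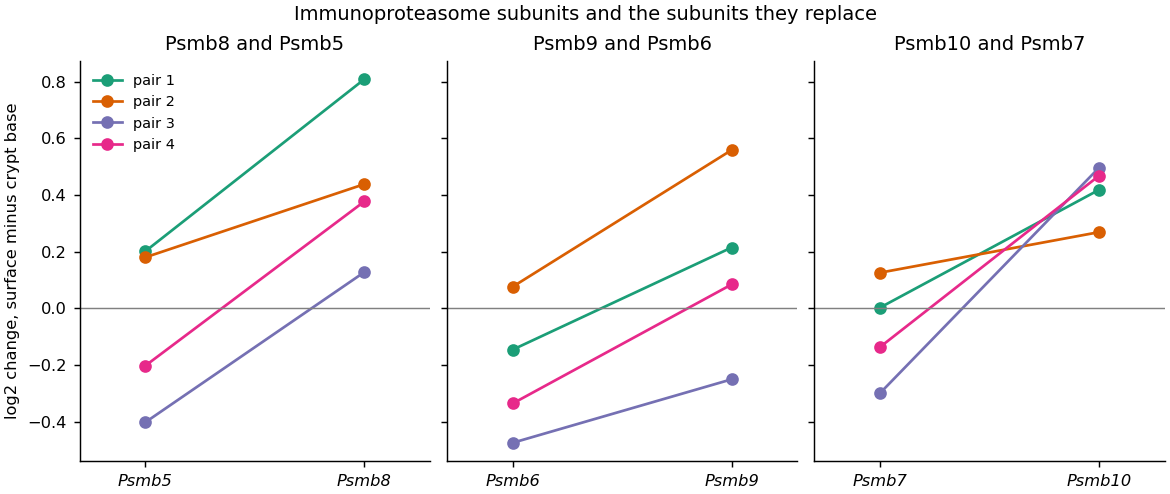
Log2 change from the crypt base to the surface of each constitutive proteasome subunit and of the immunosubunit that replaces it, with a line for each pair. All 12 lines rise, by means of 0.49, 0.37 and 0.49 for Psmb8, Psmb9 and Psmb10.

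Within the groups the genes varied in part together, and how far depended on the samples of number 4. Once each group's mean had been subtracted, the 36 pairs of genes had correlations over the 8 arrays from -0.77 (Tap2 with H2-T23) to 0.93 (Psmb8 with Psmb9), with a median of -0.06 and 17 above 0. These points share arrays, sample numbers and RNA amplification, so the correlations are a description. H2-D1, B2m, Tap2, Psmb8 and Psmb9 were low in both samples of number 4, with deviations from -0.41 to -0.83. H2-K1, H2-T23, Tapbp and Psmb10 were not, with deviations there from 0.01 to 0.56. This division was made after the values had been seen. H2-D1 correlated with Psmb8 at 0.92 and with Tap2 at 0.90, H2-T23 with Psmb10 at 0.85, and H2-K1 with Tapbp at 0.80. Surface 4 is also the array that stood apart over all probes, and crypt base 4 came next. Without both samples of number 4, an alternative added after the values had been seen, the correlations over 6 arrays ran from -0.62 to 0.92 with a median of 0.38, and 27 of the 36 were above 0. H2-D1 then correlated with Psmb8 at 0.62 and with Tap2 at 0.67, H2-T23 with Psmb10 at 0.87 and with Tap2 at -0.10, and H2-K1 with Tapbp at 0.92.

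**Figure D4:**
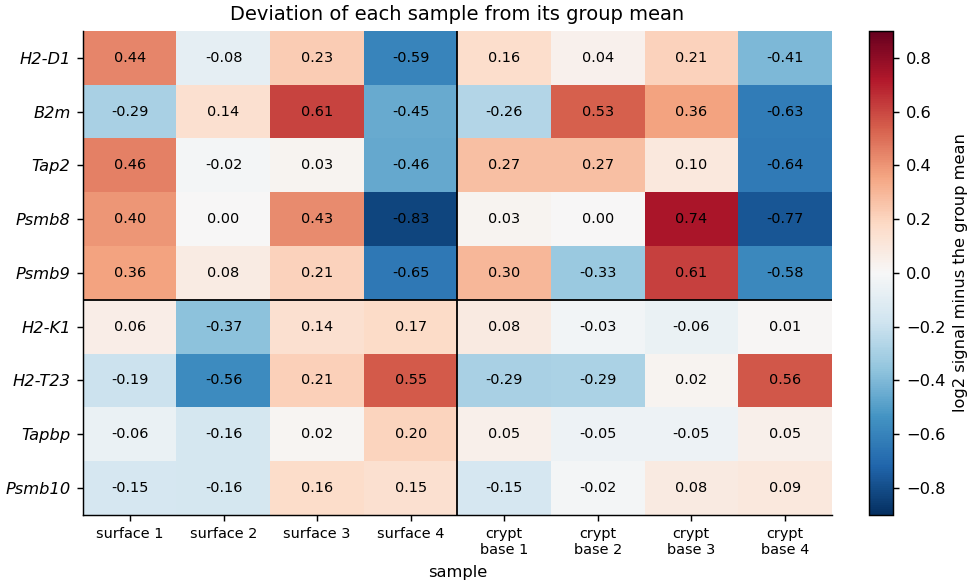
Deviation of each sample from the mean of its own group, in log2 units, for the 9 genes in the fit. The 5 genes above the line were low in both samples of number 4 (-0.41 to -0.83), and the 4 genes under it were not (0.01 to 0.56).

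Among the other 9485 genes tested, those whose deviations were most like the mean deviation of the group over the 8 arrays were Misp (r = 0.97), Zfp691 (0.96), Rfc3 (0.94), Cpm (0.93), Cd209b (0.93), Kcnh6 (0.92), Zc3hav1 (0.91) and Cntnap2 (0.91). The median r over all of them was -0.08. The mean deviation follows some genes of the group and not others: against the mean of the other 8, r was 0.87 for Psmb8, 0.80 for H2-D1, 0.71 for Psmb9, 0.59 for Tap2 and 0.50 for B2m, but 0.06 for H2-K1, -0.08 for Psmb10, -0.40 for Tapbp and -0.51 for H2-T23. Without the samples of number 4, an alternative added after the values had been seen, the 8 named genes had r between 0.84 and 0.97 over 6 arrays, but 0 of them were among the 8 most alike. Of the 8 named genes 4 rose at the surface in limma, as did 12.1% of all genes tested. These 8 were picked for deviations that samples of the same number share in part, and the block takes such deviations out. Nothing is read from that count. Misp, an actin-bundling protein, rose by 1.22 ± 0.11 and the carboxypeptidase Cpm by 1.15 ± 0.11 (limma adjusted p-values 0.00739 and 0.00739). The antiviral zinc finger protein Zc3hav1 rose by 0.54 ± 0.10 and Zfp691 by 0.36 ± 0.08 (0.0168 and 0.0251). Without the block the adjusted p-values of Cpm and Zfp691 were 0.0798 and 0.0686. The others did not pass, with changes of -0.06 for Rfc3, -0.05 for Cd209b, 0.15 for Kcnh6 and -0.01 for Cntnap2.

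The gene lists from here on were also chosen with earlier results of these data known, so their counts are a description. The array named 15 other class I heavy chain genes, and 7 of them were tested. In limma 5 rose and 0 fell (median change 0.53), while 12.1% of all genes tested rose and 10.1% fell. H2-Q5 rose by 0.88 ± 0.15, H2-Bl by 0.67 ± 0.13 and H2-T9 by 0.58 ± 0.14, with adjusted p-values of 0.0147, 0.0206 and 0.0312. H2-T22 at 0.53 ± 0.10 and H2-Q7 at 0.42 ± 0.08 also passed and were named after their values had been seen. H2-Bl started from a crypt base mean of 5.48, which is at background. Without the block 3 passed, with adjusted p-values of 0.0609 for H2-Bl and 0.120 for H2-T22, and without number 3 none did. Class I heavy chain genes resemble each other closely in sequence, so a probe named for one may also take up RNA of another, for these genes and for H2-K1, H2-D1 and H2-T23 alike.

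The class I-like genes, which bind lipids, antibodies or stress receptors rather than loaded peptides, included no gene that passed. Of 10 on the array 4 were tested, and in limma 0 rose and 0 fell, with 1 at an unadjusted p under 0.05 and 1 passing with the block as a random effect. The brightest were Fcgrt, the neonatal Fc receptor, at 9.45 in the crypt base and 9.69 at the surface, and the NKG2D ligand Raet1d at 6.23 and 6.18. The median change was -0.08.

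Genes that trim peptides or assist assembly in the endoplasmic reticulum gave 1 rise and 2 falls in limma among 13 tested (median change -0.17). These calls were 23.1% of the list, near the 22.2% of all genes tested, so nothing is read from their number. Tapbpl, the tapasin-related peptide editor, rose by 0.51 ± 0.14 (adjusted p-value 0.0476), while its other probes changed by 0.32 and 0.07. The glucosidase Mogs fell by 0.84 ± 0.14 (0.0133) and the bleomycin hydrolase Blmh by 0.42 ± 0.10 (0.0374). The chaperones of the peptide-loading complex did not pass: Pdia3 had a change of 0.18 (adjusted p-value 0.223) and Canx one of -0.23 (0.228). Calr was detected on 1 array and the trimming peptidase Erap1 on none, so neither was tested. Without the block the call was left for Mogs only, with adjusted p-values of 0.184 for Tapbpl and 0.165 for Blmh.

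Among the rest of the proteasome core, its assembly factors and the PA28 activator, 0 of 17 genes tested rose and 3 fell in limma, with a median change of -0.19. That is 17.6% lower, against 10.1% of all genes tested. The falls were those of the assembly chaperone Psmg1 by 0.54 ± 0.10, Psmb2 by 0.49 ± 0.10 and Psmb4 by 0.29 ± 0.08 (limma adjusted p-values 0.0164, 0.0235 and 0.045). Psme1, a PA28 chain induced by interferon, had a change of 0.03 ± 0.09 (0.854), and its partner Psme2 was detected on 2 arrays and not tested. Without the block 1 gene passed, Psmb2, and without number 3 or number 4 none did.

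Among known regulators of class I transcription and parts of the interferon pathways that drive it, 11 of 24 genes tested rose and 0 fell in limma, a share of 45.8%, with a median change of 0.22. Of all genes tested, 12.1% rose and 10.1% fell. The interferon gamma receptor chain Ifngr1 rose by 1.29 ± 0.12, from 6.89 to 8.18, and the transcription factor Irf1 by 1.29 ± 0.14, from 8.58 to 9.87, with adjusted p-values of 0.00739 and 0.00749. Il10rb, a receptor chain shared by interferon lambda and interleukin 10 family cytokines, rose by 0.86 ± 0.14 (0.0121). Other probes of Irf1 and Il10rb changed by 0.47 and 0.08. Nlrc5, the class I coactivator, rose by 0.27 ± 0.07 from 6.11 (adjusted p-value 0.049), but had an adjusted p-value of 0.357 without the block. Leaving out number 1, 2, 3 or 4 left 0, 10, 5 and 4 calls in this list.

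Other interferon-induced genes gave 7 rises and 1 fall among 15 tested, with a median change of 0.36. In either direction that is 53.3%, against 22.2% of all genes tested. Ido1, which breaks down tryptophan, rose by 1.41 ± 0.25 from a crypt base mean of 5.40, below background, to 6.81. Parp9 rose by 0.91 ± 0.15, with another probe at 0.05, and the ubiquitin-like Ubd by 0.72 ± 0.18. Their limma adjusted p-values were 0.0153, 0.0132 and 0.0358. Bst2, the antiviral tetherin, fell by 0.50 ± 0.08 (adjusted p-value 0.0145), but without the block the adjusted p-values were 0.413 for Bst2 and 0.184 for Ubd. The fit without the block left 3 calls in this list, and leaving out number 1, 2, 3 or 4 left 0, 6, 2 and 4.

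MHC class II genes, which present peptides to CD4+ T cells, were all tested, and 0 of 10 passed in limma, with 2 at an unadjusted p under 0.05. H2-Ab1 had the brightest probe, at 8.97 in the crypt base and 9.46 at the surface, with a change of 0.49 and an adjusted p-value of 0.0535, and Cd74, the invariant chain, had a change of 0.29 from 8.59. Without number 3, 3 class II genes passed, and 1 passed with cyclic loess, with the mean of all detected probes, with probes detected on all 8 arrays, with a robust and trended fit or with a random block.

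**Figure D5:**
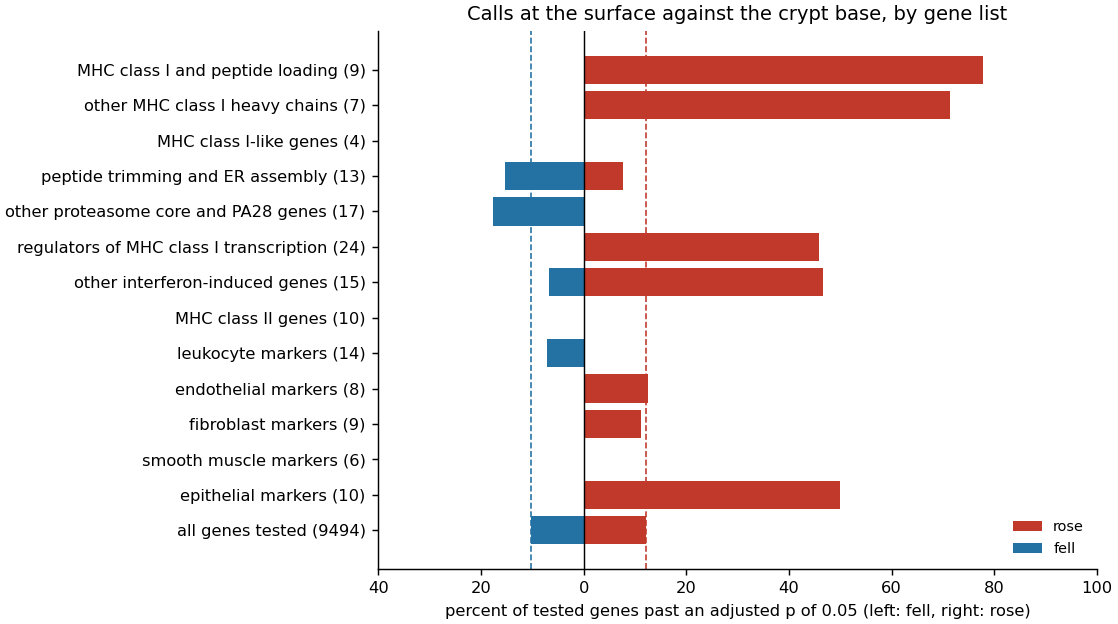
Percent of the tested genes of each list that passed a limma adjusted p-value of 0.05, with rises to the right and falls to the left and the number tested in brackets. Dashed lines mark the shares over all 9494 genes, 12.1% higher and 10.1% lower. The topmost bar shows the 9 genes chosen on this contrast. The other lists were also chosen with earlier results of these data known, so all bars are a description. Those of other class I heavy chains, regulators, other interferon-induced genes, epithelial markers and, barely, endothelial markers (12.5%) also reach past the dashed line for rises. Bars of peptide trimming and assembly genes and of other proteasome genes reach past the dashed line for falls.

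Markers of other cells that carry class I molecules were read beside these values. Of 23 leukocyte markers on the array 14 were tested, and in limma 0 rose and 1 fell (7.14%, against 10.1% of all genes tested). Their median change was 0.09, and 10 of the 14 had a higher mean at the surface, as had 4536 of all 9494 genes tested. The summed linear signal of the leukocyte markers ranged from 2787 to 7556 at the surface and from 3517 to 6593 at the crypt base, so the ranges overlapped. A sum of linear signals follows the brightest markers of its list most, here and for the lists below. Laptm5 was the brightest, at 11.46 in the crypt base and 11.27 at the surface, and Cd8b1 fell by 0.80 ± 0.17 (adjusted p-value 0.0223), with another probe at -0.07. Ptprc, Gzma, Gzmb and Itgam were detected on no array. The mean log2 level of the leukocyte list was highest in surface 2 (7.60) and lowest in crypt base 4 (6.49) and surface 4 (6.53). Both samples of number 4 were also the low ones for H2-D1, B2m, Tap2, Psmb8 and Psmb9. That low level was not particular to leukocyte markers. The mean of the smooth muscle list was lowest of its group in surface 4 (6.91) and crypt base 4 (8.27). So were those of class II genes (6.89 and 6.63) and other interferon-induced genes (6.44 and 6.18). Those of the endothelial, fibroblast and epithelial lists were not lowest in both. The part of leukocytes or smooth muscle in the values of H2-D1, B2m, Tap2, Psmb8 and Psmb9 was not tested.

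Of 10 endothelial markers 8 were tested and 1, Plvap, rose, by 0.60 ± 0.09 (limma adjusted p-value 0.0114). The summed endothelial signal was 1250 to 1507 at the surface and 985 to 1296 at the crypt base. Pecam1 and Esam, the brightest of that list, read 8.68 and 7.77 at the crypt base and 9.08 and 7.93 at the surface. All 9 fibroblast markers were tested and 1, Col3a1, rose, by 0.55 ± 0.12 (0.0278), with Dcn at 10.38 in the crypt base and 10.00 at the surface and Col6a1 at 9.19 and 9.46. The fibroblast sums were 2961 to 3601 at the surface and 2502 to 4155 at the crypt base. Rises were 12.5% of the endothelial and 11.1% of the fibroblast markers tested, near the 12.1% of all genes tested. No smooth muscle marker of 6 tested passed in limma, with 4 at an unadjusted p under 0.05 and a median change of -0.83, and Acta2 and Actg2 had changes of -0.84 and -1.23. Without number 3, 5 smooth muscle markers fell. The summed smooth muscle signal was 1972 to 11546 at the surface and 6316 to 24539 at the crypt base, so the ranges overlapped. In crypt base 2 it was above the summed epithelial signal of that sample, 20913.

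Of 10 epithelial markers tested 5 rose and 0 fell in limma (median change 0.40), while 12.1% of all genes tested rose. Krt8 rose by 0.79 ± 0.13, Krt19 by 0.79 ± 0.10, Vil1 by 0.76 ± 0.10 and Lgals4 by 0.41 ± 0.10. Cdx2, named after its values had been seen, also rose, from 8.50 to 9.07 (limma adjusted p-value 0.0238). The summed epithelial signal was 26097 to 31070 at the surface and 18654 to 23428 at the crypt base, without overlap. Lgals4 and Krt8, the brightest markers, weigh most in it. Without the block the calls of Krt8 and Vil1 were left. The limma adjusted p-values were then 0.0874 for Krt19, 0.0586 for Lgals4 and 0.653 for Cdx2. The part that the higher epithelial signal or the endothelial and smooth muscle markers may have in the values of the class I genes was not tested.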

How the data were processed

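RNA from 4 surface and 4 crypt base samples was amplified and hybridised to Illumina bead arrays, per the labels' protocols. The deposited log2 values were used as they stand. How the authors normalized them is not stated, and the submitters' processing notes name GenomeStudio without a version. At 99.0% of ranks the 8 sorted arrays differed by less than 0.01, so their distributions had been equalised before deposit. From the deposited detection p-values only a count of arrays per probe was taken, and 8 signal columns of that table, whose names match no label, were not used. That table listed 11 probes more than once.

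Gene names came from the platform annotation, in which 29976 probes had 1 symbol, 10 had several and 16646 had none; 29921 probes matched a RefSeq gene ID. Each gene was read from its brightest probe, and the 9494 genes detected on at least 4 of 8 arrays were fitted with limma 3.58.1 in R 4.3.3 (lmFit and eBayes with default settings, two-sided, Benjamini-Hochberg adjustment over all genes tested, threshold 0.05), with the sample number as a fixed block. The fit had 3 residual and 3.09 prior degrees of freedom and was tested on simulated data. Every probe of the 10 genes was fitted in the same way over all probes detected on at least 4 arrays, and these standard errors are given. Random blocks used statmod 1.5.0. Promoter windows were aligned with Biopython 1.88.

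Per the series' design text each mouse gave both samples, but the labels do not tie a number to a mouse. After subtraction of group means, samples of the same number correlated across genes at 0.45, 0.39, -0.04 and 0.48 for numbers 1 to 4, and those of unlike numbers at -0.49 to 0.31. For number 3 the data show no pairing, which rests there on the design text alone, and fits without the block are given beside results they change. In the blocked fit, p-values set a change against the spread of these samples that remains after the block, moderated over all genes tested.

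The 10 genes and all gene lists were chosen with earlier results of these data known. Named were the 10 genes with every probe, the 3 largest rises and falls of each other list among genes past 0.05, the 2 brightest of lists without one and of marker lists, a fixed set of class I regulators, loading chaperones and proteasome subunits, and the 8 genes most like the group in their deviations. Alternatives changed the block, the detection filter, the choice of probe, the normalization (cyclic loess), a floor at background, the moderation of variances, and the replicates. No background correction or between-array normalization was added, because the values were already normalized.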

Additional observations from a re-analysis of the deposited data

Results flagged for a closer look

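In 1 of 26 groups of 4 samples examined, over the 13 detected probes of the 10 genes, a sample lay far from the other 3. For the second probe of Psmb8, crypt base 3 was the highest of its group at a log2 signal of 5.93, and its gap to the next sample was 0.950 of the range of the group, above Dixon's 95% critical value for 4 samples. The brightest Psmb8 probe was also highest in crypt base 3 within that group, at 11.12. Chance alone marks about 5% of such groups.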

How the results depend on the processing

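The fit without the replicate block left 1267 genes in all, 2 of the class I and peptide loading genes, 3 other heavy chains, 1 trimming and assembly gene, 1 other proteasome gene, 3 interferon-induced genes and 2 epithelial markers. With the block as a random effect, 4 of the class I and peptide loading genes, 1 class I-like gene, 1 trimming and assembly gene, 5 interferon-induced genes, 1 class II gene, 2 leukocyte, 2 endothelial and 2 fibroblast markers passed. With the mean of all detected probes, 1 class II gene, 0 leukocyte and 2 endothelial markers passed. Probes detected on all 8 arrays, and likewise a robust and trended fit, gave 1 class II gene and 2 endothelial markers, and cyclic loess gave 1 class II gene. Leaving out 1 number at a time gave 0 to 2303 genes in all, 0 to 6 class I and peptide loading genes, 0 to 5 other heavy chains, 0 to 1 class I-like genes, 0 to 5 trimming and assembly genes, 0 to 4 other proteasome genes, 0 to 10 regulators, 0 to 6 interferon-induced genes, 0 to 3 class II genes, 0 to 2 leukocyte, 0 to 3 endothelial, 0 to 2 fibroblast, 0 to 5 smooth muscle and 0 to 7 epithelial markers. Without number 1 every one of these counts was 0, and 2512 genes still had an unadjusted p under 0.05, against 3464 with all samples; without number 3 and number 4 there were 1043 and 799 genes called. Counts of 0 also came without number 3 for other heavy chains, without number 3 or 4 for other proteasome genes and for leukocyte and fibroblast markers, without number 2 or 4 for class II and smooth muscle genes, and without number 3 or 4 for class I-like genes. Leaving out surface 4 alone gave the values without number 4. Of 117 alternative values for the changes of the class I and peptide loading genes, 114 lay within 1 SD of the pairs and kept their sign. Most could not have left that range, so the count does not measure stability. Changing the block, the detection filter, the floor or the moderation of variances returned the same changes. Leaving out 1 of 4 numbers cannot move a mean by 1 SD of the pairs. Only cyclic loess and the mean of all detected probes could. The change of Tapbp turned sign in 2 of the 117. It was -0.0061 without number 4 or surface 4 and ranged from -0.0061 to 0.083 over the left-out numbers. The change of Psmb9 ranged from 0.016 to 0.29 over the left-out numbers, wide against its value with all samples. The change of H2-K1 was 0.99 as the mean of its detected probes. Fewer samples or another estimate of the spread entered these fits, and the cause of single losses was not tested. The added search for GAANNGAAA changed no value of expression.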
